A study of Mus musculus with 2 samples.

Results

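The genes described are the annotated copies of spliceosomal small nuclear RNAs (snRNAs) that received reads in nucleoplasmic RNA of mouse macrophages. A gene was included when its transcript carries the biotype snRNA in the GENCODE M21 annotation and its expected count, an estimated number of reads, was at least 10 in both libraries. Of 1383 annotated snRNA genes, 30 met this rule, or 2.17%, against 24.1% of all 55536 annotated genes. The members were chosen by these measured counts, so their levels are given as a description and carry no test. All 30 fell into 4 families: 16 copies of U1, 11 of U2, 2 of U4 and 1 of U12. The label of spliceosomal snRNA was met by every member.

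The cells were bone-marrow-derived macrophages, primary cells of the mouse strain C57BL/6J. They were stimulated with Lipid A, the part of bacterial lipopolysaccharide that macrophages sense, at 100 ng/ml for 60 min. Total RNA of the nucleoplasmic fraction was sequenced after removal of ribosomal RNA, in 2 biological replicates of this single condition. The labels give no unstimulated sample, no other fraction, no genetic change and no age or sex for the animals. The starting amount of RNA was 1 µg for the library called replicate 1 here and 500 ng for the other, replicate 2. The size range in the labels is 250 to 400 for both. Both libraries carry the same donor label, so the spread between them may be technical, and no test between conditions can be made.

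The expected counts on annotated genes summed to 21115765 in replicate 1 and 15607391 in replicate 2. All 9 macrophage markers checked had a TPM (transcripts scaled for effective length and library) of at least 1 in both libraries, while the 3 T cell markers were at 0 in both. No marker of neutrophils (0 of 5), B cells (0 of 3) or erythroid cells (0 of 3) reached 1 TPM in both libraries, and 1 of 3 megakaryocyte markers did. Of 5 nuclear-retained RNAs, 4 were at or above 1 TPM in both.

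An intron is removed by the spliceosome, which is built from small nuclear ribonucleoproteins, each an snRNA with its proteins. U1 pairs with the 5′ splice site and U2 with the branch point, after which U4, U5 and U6 join as a pre-assembled complex. U4 holds U6 inactive until the spliceosome is activated. U11 and U12 take the places of U1 and U2 at a rare class of introns, while U7 serves the processing of histone mRNA and not splicing. Mammalian snRNA genes occur in many near-identical copies. A ring of Sm proteins binds a short U-rich site in each of the spliceosomal RNAs named here except U6.

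The 30 members carried only 16 distinct sequences, so the sequences rather than the gene names set what the reads can tell apart. Sequences are given with T for U, 5′ to 3′, from the GENCODE M21 transcripts on the mm10 assembly. The copies below show 1 sequence of each family, in which capitals mark the part that pairs with the intron, where known, and the Sm site. Rnu1a1 lies at chr11:87422867-87423030 and Rnu2-10 at chr11:101658238-101658428. Gm24265, a U4 copy, lies at chr5:115489459-115489599 and Rnu12 at chr15:83149644-83149794, all on the plus strand.
Rnu1a1: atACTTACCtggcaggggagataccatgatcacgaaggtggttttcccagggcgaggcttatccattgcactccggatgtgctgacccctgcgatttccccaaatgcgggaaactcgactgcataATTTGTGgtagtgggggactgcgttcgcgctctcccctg
Rnu2-10: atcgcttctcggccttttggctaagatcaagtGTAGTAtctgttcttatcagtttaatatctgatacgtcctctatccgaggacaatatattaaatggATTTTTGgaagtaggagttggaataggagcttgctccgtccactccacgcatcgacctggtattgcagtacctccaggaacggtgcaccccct
Gm24265: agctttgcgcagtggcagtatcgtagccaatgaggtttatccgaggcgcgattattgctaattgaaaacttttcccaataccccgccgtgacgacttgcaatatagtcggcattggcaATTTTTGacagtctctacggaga
Rnu12: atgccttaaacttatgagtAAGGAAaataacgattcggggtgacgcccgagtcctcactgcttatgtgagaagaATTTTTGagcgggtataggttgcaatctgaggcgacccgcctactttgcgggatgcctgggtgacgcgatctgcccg

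Only these letters were searched, in the sense strand and in the reverse complement. ACTTACC, the stretch of U1 that pairs with the 5′ splice site, was present in 16 of 16 U1 members and in 4.70% of all 1383 snRNA entries. Its reverse complement occurred in 0.145% of them. For the other motifs the share of the reverse complement was nearer to that of the sense letters, and it is given with each. ATTTGTG, the Sm site of U1, was present in the same 16 members and in 12.9% of all entries (reverse complement 9.47%). GTAGTA, the branch point recognition stretch of U2, was present in 11 of 11 U2 members and in 3.69% of all entries (reverse complement 1.16%). ATTTTTG, the Sm site of the other families here, was present in all 11 U2, both U4 and the single U12 member, and in 3.33% of all entries (reverse complement 2.24%). AAGGAA, which in U12 pairs with the branch point, was present in Rnu12 and in 2.46% of all entries (reverse complement 2.17%). The motifs do not overlap each other in these copies. The 2 U4 copies matched no named snRNA copy at the 70% identity used for the other families, their best being 52.4% to Rnu1a1. They were named U4 here from their known sequence.

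The next copies show how small the differences are on which the counts of separate U1 and U2 genes rest, with capitals marking bases that differ from the family's first sequence above. Gm22513 (chr12:54696782-54696945, plus strand) differs from Rnu1a1 by T60C, counted from 1 at the 5′ end with the base of Rnu1a1 first. Gm22614 (chr3:96488729-96488893, plus strand) is a U1b-type copy with 6 differences from Rnu1a1, an inserted base included. Gm25939 (chr1:72255008-72255198, plus strand) differs from Rnu2-10 by T69C, C78T and G109C. Gm26316 (chr11:101604850-101605040, plus strand) differs from Rnu2-10 by C170T.
Gm22513: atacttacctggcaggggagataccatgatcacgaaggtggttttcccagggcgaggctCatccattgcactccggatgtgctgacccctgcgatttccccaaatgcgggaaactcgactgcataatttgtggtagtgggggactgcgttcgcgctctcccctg
Gm22614: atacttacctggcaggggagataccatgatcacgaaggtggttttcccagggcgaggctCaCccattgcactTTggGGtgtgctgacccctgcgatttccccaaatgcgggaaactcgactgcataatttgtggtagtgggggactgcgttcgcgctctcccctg
Gm25939: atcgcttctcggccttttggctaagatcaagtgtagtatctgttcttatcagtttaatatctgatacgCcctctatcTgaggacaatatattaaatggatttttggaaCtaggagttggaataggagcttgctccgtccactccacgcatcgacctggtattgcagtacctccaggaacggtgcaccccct
Gm26316: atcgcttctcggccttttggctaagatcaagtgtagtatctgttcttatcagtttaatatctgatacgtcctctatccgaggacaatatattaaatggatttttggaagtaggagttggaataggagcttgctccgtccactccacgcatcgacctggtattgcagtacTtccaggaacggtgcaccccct

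Reads of the members were dominated by U2 and U1. The 30 members together held 53664.8 expected counts in replicate 1 and 27962.8 in replicate 2. These were 0.254% and 0.179% of the counts on annotated genes, or 0.217% ± 0.053 (SD, n = 2). U2 copies summed to 32798 counts in replicate 1 and 19655 in replicate 2, which were 61.1% and 70.3% of the members' counts. U1 copies summed to 19782.8 and 8133.85, or 36.9% and 29.1%. The U4 copies held 985 and 161 counts and Rnu12 held 99 and 13. U2 led U1 in both libraries, by 1.66 times in replicate 1 and 2.42 times in replicate 2.

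**Figure D1:**
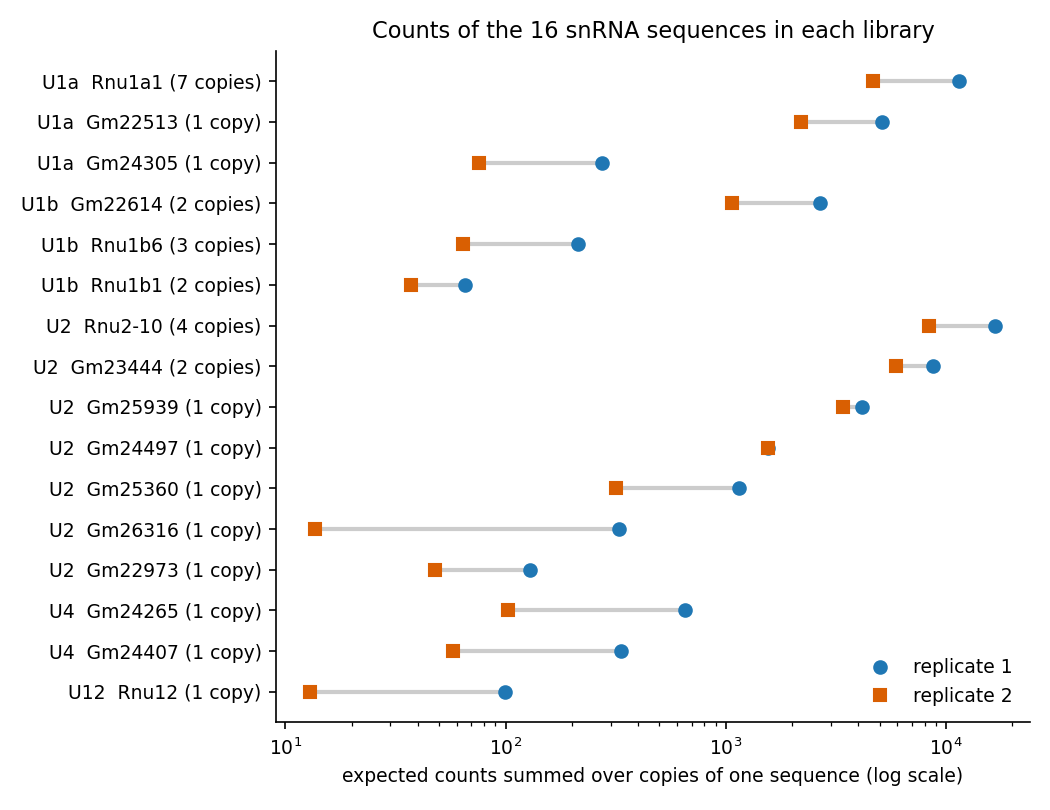
Expected counts of the 16 sequences in replicate 1 (circles) and replicate 2 (squares) on a log axis, each summed over the copies that carry the sequence, with a grey line joining the libraries. Replicate 2 is the lower for every sequence except Gm24497, at 1548.24 and 1555.36, and the gap is widest for Gm26316, at 328.39 and 13.63.

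Among the U1 copies, the sequence of Rnu1a1 held the most counts. It is carried by 7 members, which summed to 11429.7 counts in replicate 1 and 4681.6 in replicate 2, or 57.8% and 57.6% of all U1 counts. Gm22513, a single copy that differs by T60C, held 5121.47 and 2208.29, or 25.9% and 27.1%. Gm24305, the remaining U1a-type copy, differs from Rnu1a1 by A26G and held 275.61 and 75.94.

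Mouse U1 genes come in a U1a and a U1b type, of which U1b is known from embryonic and other immature tissue. Here 7 U1b-type copies with 3 sequences summed to 14.9% of U1 counts in replicate 1 and 14.4% in replicate 2, or 14.7% ± 0.41 (SD, n = 2). Nearly all of that came from the sequence shared by Gm22614 and Gm25890, with 2677.22 and 1066.8 counts, or 90.6% and 91.3% of the U1b counts. The named U1b genes were near the low end of the members. The sequence of Rnu1b6, carried by 3 members, held 213.24 and 63.96 counts. The sequence of Rnu1b1 and Rnu1b2 held 65.52 and 37.26.

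Among the U2 copies, the sequence of Rnu2-10, carried by 4 members, held 16794.5 counts in replicate 1 and 8364.6 in replicate 2. That was 51.2% and 42.6% of U2 counts. The sequence shared by Gm23444 and Gm23472, which differs from Rnu2-10 by G109C, held 8703.68 and 5956.08. Gm25939 held 4149.17 and 3398.31, and Gm24497, with G109C and C186A, held 1548.24 and 1555.36. Gm25360, with 4 substitutions, held 1145 and 319. Gm26316 held 328.39 and 13.63. Gm22973, the most diverged U2 member with 9 substitutions, held 129 and 48.

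Position 109 divides the U2 copies. It lies a few bases after the Sm site and is G in 5 members, C in 5 and A in Gm22973. Copies with C held 47.4% of U2 counts in replicate 1 and 57.1% in replicate 2, while copies with G held 52.2% and 42.6%. The order of G and C therefore differed between the libraries. The second transcript table gave the same order in each, with C at 47.1% and 55.2%.

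The U4 and U12 members were the shortest. Gm24265 held 650 counts in replicate 1 and 103 in replicate 2, and Gm24407, which differs from it by G88A and C99A, held 335 and 58. Gm24265 thus made up 66.0% and 64.0% of U4 counts. Rnu12, the only member of the minor spliceosome, held 99 and 13 counts.

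Members sharing a sequence could not be told apart. In each of the 6 sequences carried by more than 1 member, the deposited count of the copies was equal, with a difference of 0 in both libraries, so the value of a single copy is an equal share of the sequence's total. The gene table also gives a posterior SD for each count. Over the 20 members that share a sequence it ran from 28.1% to 87.0% of the posterior mean in replicate 1 and from 37.1% to 105% in replicate 2. Over the 10 members with a sequence of their own the median was 0.0055% and 0.0069%. The largest values among those 10 were those of Gm24497, at 35.5% and 48.2%, and the next those of Gm26316, at 7.0% and 35.2%. The posterior mean of Gm24497 was 2765.42 in replicate 1 and 2079.83 in replicate 2, against expected counts of 1548.24 and 1555.36. A small posterior SD did not mean that both deposited tables gave the same count. That of Rnu12 was 0 in both libraries, while its 99 and 13 counts were 830 and 306 in the second transcript table. No member sequence was found inside another annotated transcript, and no other snRNA entry was identical to a member.

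**Figure D2:**
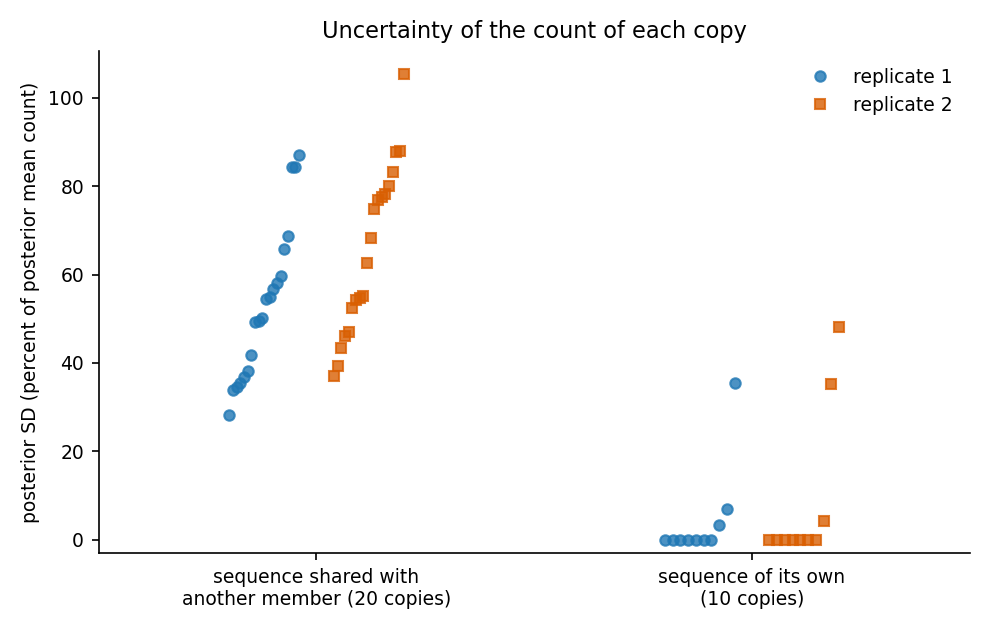
Posterior SD of each member's count as a percent of its posterior mean, for replicate 1 (circles) and replicate 2 (squares), with members whose sequence another member shares on the left and members with their own sequence on the right. Shared copies start at 28.1%, while 7 of 10 members with their own sequence are under 1% in each library.

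Counting error alone does not describe these values, since the reads carry no molecular identifiers and the copies share most of their bases. Because strand handling is not stated, reads from the opposite strand cannot be told apart either.

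Members lay at the edge of the rule in a few cases. Just inside were Rnu12, with a lower count of 13, Gm26316 with 13.63, and Rnu1b1 and Rnu1b2 with 18.63 each. Just outside were Gm24145 with 9 and 5 counts, Gm23238 with 5.15 and 4.24, and Gm25605 with 1 in both libraries. Gm22214 and Gm25131 also had a lower count of 1. Gm23238, 4 differences away from the nearest U1 member, had 431 and 35.3 counts in the second transcript table.

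The length of an snRNA entry bounded the counts of the gene table. Effective length, the number of positions at which a fragment could start, was 0 for every entry of up to 122 bases in replicate 1 and up to 126 in replicate 2. This covered 1083 of the 1383 entries in replicate 1 (78.3%) and 1101 in replicate 2 (79.6%). The median snRNA entry was 107 bases long, and the members were 141 to 191. None of the 1083 entries of up to 122 bases had 10 counts in both libraries, nor did any of the 18 of 123 to 126 bases. Of 122 entries of 127 to 159 bases, 3 did. The share was 16 of 138 at 160 to 189 bases and 11 of 22 at 190 to 200.

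**Figure D3:**
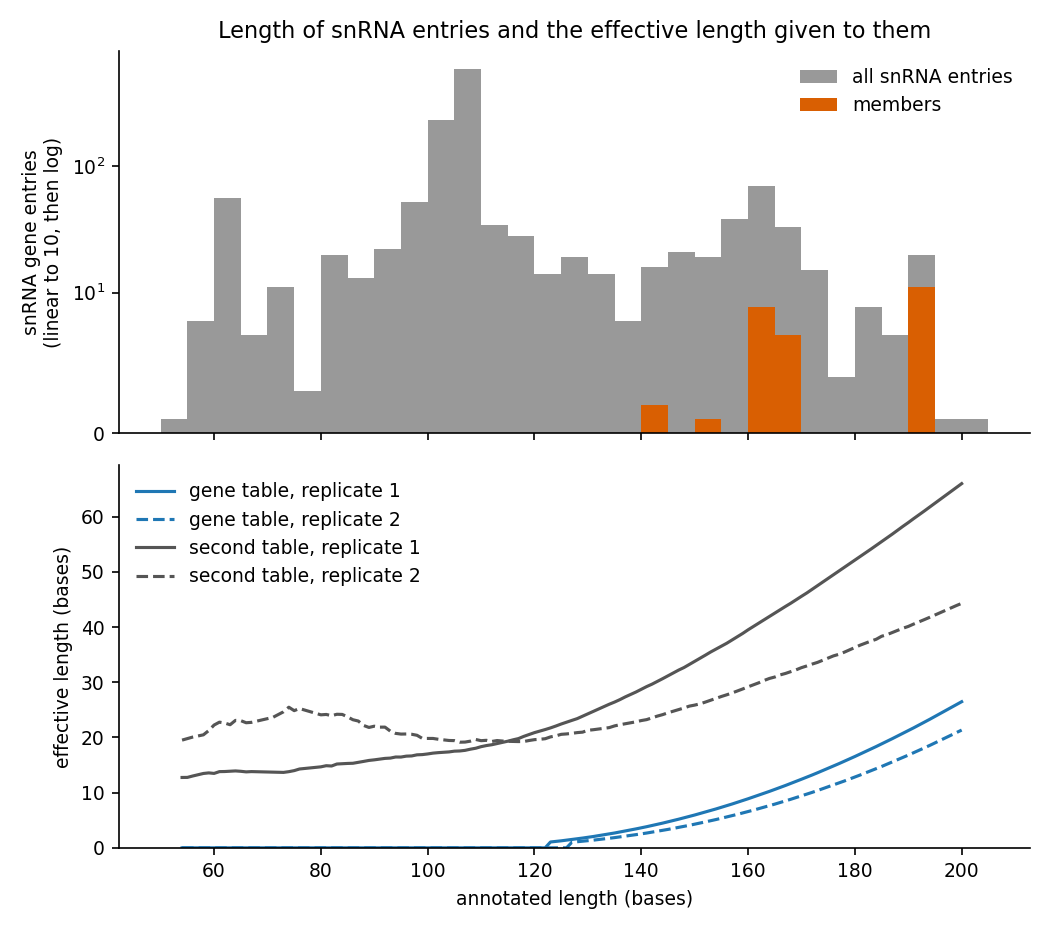
The upper panel counts all 1383 snRNA entries (grey) and the 30 members (orange) by annotated length in bases, on an axis that is linear to 10 and logarithmic above. The lower panel gives the effective length of each entry in both deposited tables and both libraries, which in the gene table (blue) is 0 up to 122 or 126 bases.

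Families that are shorter than this limit were listed at 0 in the gene table. An effective length of 0 did not always go with a count of 0. Of 634 small nucleolar and Cajal body RNA entries of up to 122 bases, 3 had counts. All 821 U6 entries, 11 U5 entries and 60 U7 entries had an effective length of 0 in both libraries. A count of 0 there does not measure their RNA. In the second transcript table, whose effective lengths stay above 0, U6 entries summed to 3948.71 and 2946.87 counts, with 48 of them at 10 or more in both libraries. U5 entries summed to 280.92 and 173.04 with 4 such entries. All 5 U11 entries were at 0 in both tables, although only 1 of them had an effective length of 0 in both libraries. In the second table Rnu6, Rnu7 and Rnu11 were at 0 as well.

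In that table, snRNA entries numbering 110 reached 10 counts in both libraries, the 30 members and 80 others. The others were low: their median was 31.5 counts in replicate 1 and 28.5 in replicate 2, against 1776 and 897 for the members. Of these 80, 40.0% lay inside another gene on the same strand and 51.3% inside one on the opposite strand, against 22.6% and 24.5% of all 1383 snRNA entries. Among the highest of the 80, Gm23731, a U6 entry inside no same-strand gene, held 301 and 332 counts. Gm25549, inside Mapkapk2, held 390 and 326 counts, and Gm24996, inside Nfe2l2, held 148 and 185. Gm25605, inside Aoah, held 238 and 123. Those host genes are expressed in these cells, Mapkapk2 at 145 and 106 TPM, Nfe2l2 at 127 and 83.3, and Aoah at 228 and 133. The part of reads from the host RNA in these counts was not tested.

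A same-strand gene held 6 of 30 members (20.0%), near the 22.6% of all 1383 snRNA entries. An opposite-strand gene held 2 (6.67%, against 24.5% of all entries), and 22 lay in no other gene (73.3%, against 55.3%). These shares were not tested. All 8 members inside another gene were intronic. Gm25939, Gm23472 and Gm24497 lie in D230017M19Rik, a long intergenic noncoding RNA gene, which had 2 and 3 counts itself. Rnu1a1 and Gm22068 lie in Tex14, with 7 and 2 counts, and Gm23849 in Rdm1, a gene with 18 and 8. The lowest of these 6 members held 1548.24 counts in replicate 1 (Gm24497) and 668.8 in replicate 2 (Rnu1a1 and Gm22068), far over their hosts. The value of 668.8 is an equal share among 7 copies of that sequence. Host counts rest on annotated transcripts, so unspliced host RNA over these members was not measured. In the second table the hosts held more, 121 and 156 counts for D230017M19Rik and 142 and 192 for Tex14.

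The members sat in a few clusters. On mm10, 7 U1 copies lie at chr12:54696782-54738622 and 7 at chr3:96328425-96488893, the latter all of the U1b type. A further 2 U1 copies lie at chr11:87422867-87426879. The U2 members comprise 4 copies at chr1:72226240-72255198, 6 on chromosome 11 and Gm22973 on chromosome 12. The U4 copies lie beside each other at chr5:115489459-115490394. Of the U1 family, 25 of 134 entries are at least 95% identical to a named copy and 16 of these are members. Of the U2 family it is 11 of 13, among 25 entries.

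TPM gave the members a much larger place than counts did. The 30 members summed to 151998 TPM in replicate 1 and 97392.7 in replicate 2, which is 15.2% and 9.74% of the library. By the second transcript table they made up 1.69% and 1.61% of TPM, while their counts there were 65195.7 and 39735. The gene table divides by an effective length of 21.74 and 17.23 bases for the 191-base U2 copies and of 3.83 and 2.68 for the 141-base U4 copies. In the second table these were 59.7 and 40.5 for U2 and 29.2 and 23.2 for U4. One count was worth 1.89 and 2.50 TPM in a U2 copy and 10.7 and 16.1 in a U4 copy. In genes over 3000 bases it was worth a median of 0.0107 and 0.0112.

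The order of the families hung on the scale. By TPM of the gene table, U1 made up 51.9% and 46.8% of the members, U2 40.7% and 50.4%, and U4 6.94% and 2.65%. U2 over U1 was then 0.784 in replicate 1 and 1.08 in replicate 2, against 1.66 and 2.42 by counts. By TPM of the second table it was 1.32 and 1.92. U2 therefore led on every scale in replicate 2, and in replicate 1 on every scale except TPM of the gene table. Over the sum of both libraries, the same 5 sequences led by expected count and by both TPM scales: those of Rnu2-10, Rnu1a1, Gm23444, Gm25939 and Gm22513. In replicate 1 alone, TPM of the gene table was higher for the sequence of Gm22614, at 10379.4, than for Gm25939, at 7829.03. Gm22513 had the highest TPM of any single copy in the gene table, 20536 and 12440.3. In the second table for replicate 2, Gm25939 was higher, at 1697 TPM against 1415. The U1b-type share of U1 was 14.5% and 13.9% by TPM.

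**Figure D4:**
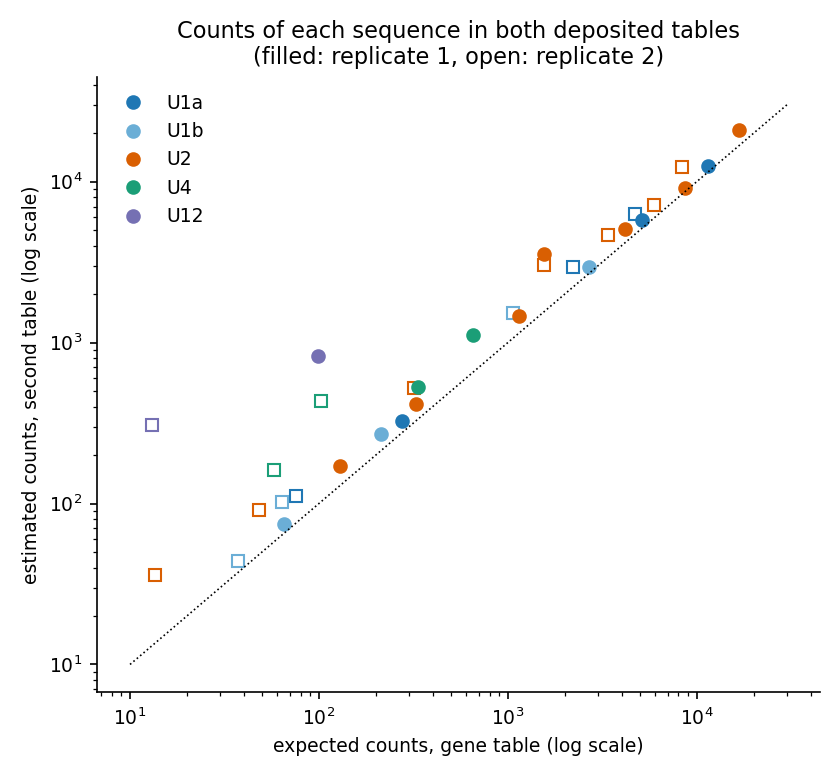
Counts of each of the 16 sequences in the gene table (x axis) and in the second transcript table (y axis), both logarithmic, coloured by type, with replicate 1 filled, replicate 2 open and a dotted line of equality. Every point lies above the line, and Rnu12 is farthest from it, at 99 against 830 in replicate 1.

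By family, the tables differed most for U12 and U4. Counts in the second table over those of the gene table were 1.10 and 1.35 for U1, 1.25 and 1.42 for U2, 1.68 and 3.70 for U4, and 8.39 and 23.5 for U12. Rnu12 held 830 and 306 counts there. In replicate 1 the U2 copy Gm24497, of 191 bases, differed by a larger factor than both U4 copies. In replicate 2 every U2 copy differed by a smaller factor than both. Gm24497 had 3571 and 3036 counts in the second table against 1548.24 and 1555.36, and Gm26316 had 418 and 36.0 against 328.39 and 13.63.

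Most members were lower in replicate 2 than in replicate 1 after scaling. The log2 ratio of replicate 2 to replicate 1 was taken after TMM normalisation, for genes with a mean count of at least 50, of which 25 were members. Of these, 6 were lower in replicate 2 beyond 2-fold and 0 higher, against 0.674% of 10088 genes lower and 0.506% higher, or 1.18% either way. The 6 were Gm26316, Rnu12, both U4 copies, Gm24305 and Gm25360. The members' median was -0.79 and that of all genes 0.00. Below 0 were 23 of 25 members, against 5032 of 10088 genes. Counted once per sequence, 6 of 14 were lower beyond 2-fold, 12 were below 0 and the median was -0.88. By deposited TPM the median of all genes moved to -0.43, and that of the members was -0.80. Since the ratio sets 1 library against another, it has no test. Fewer cells of a kind and less of an RNA per cell cannot be told apart in bulk RNA.

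The families differed in the size of this ratio. The 11 U1 members tested had a median of -0.79 and ran from -1.36 in Gm24305 to -0.72 in Gm22513. Of these, 7 share the sequence of Rnu1a1 and its ratio of -0.79, so that sequence sets the median. Gm22614 and Gm25890, which share a sequence, stood at -0.83. The 11 U2 members had a median of -0.51, but ran from -4.01 in Gm26316 to 0.50 in Gm24497. That median is the value of the Rnu2-10 sequence, at which all 4 of its copies stood. Gm25939 stood at 0.21, Gm23444 and Gm23472 at -0.05, and Gm25360 at -1.35. Summed over the family, U2 had a ratio of -0.24 and U1 of -0.79. Gm24265 stood at -2.16, Gm24407 at -2.03 and Rnu12 at -2.39. In the second table these last 3 were -1.22, -1.57 and -1.29, and Gm24497 was at -0.087.

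**Figure D5:**
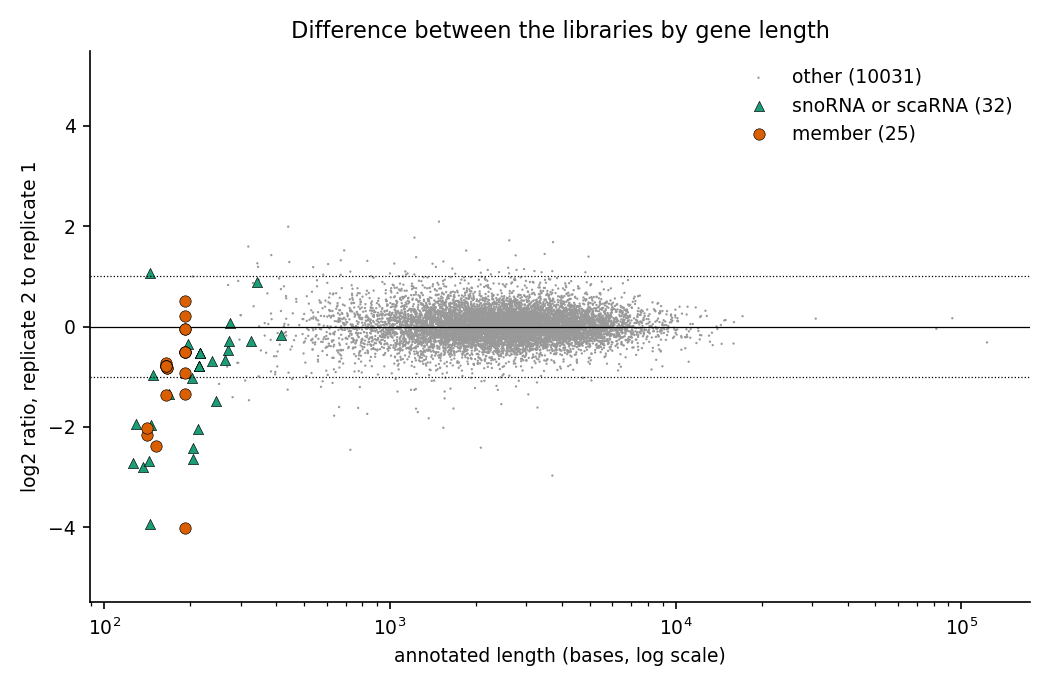
Log2 ratio of replicate 2 to replicate 1 after TMM normalisation against annotated length (log axis) for 10088 genes, with 25 members as orange circles, 32 snoRNA or scaRNA genes as green triangles and other genes in grey, and dotted lines at 2-fold. Members and snoRNAs lie mostly below 0, and 3 genes beyond 5.5 either way are outside the axis.

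The ratio was also below 0 in most other short genes. The 11 other genes of up to 200 bases had a median of -1.93, with 7 lower beyond 2-fold and 1 higher. Genes over 200 and up to 400 bases had a median of -0.53 over 56 genes, those over 400 and up to 1000 bases one of -0.03 over 632, and longer ones one of 0.00 over 9364. By the second transcript table the medians of these groups, from the shortest, were -1.49, -0.13, -0.04 and -0.02, and that of the members was -0.84. The 32 small nucleolar and Cajal body RNA genes, which are also counted in these length groups, had a median of -0.78 with 12 lower and 1 higher. Effective length differed as well, being the annotated length less 206 bases for long genes in replicate 1 and less 216 in replicate 2. Starting amount differed between the libraries too, and its part and that of fragment length in these ratios were not tested.

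Transcripts of the proteins that work with these RNAs lay close to 0 on the same ratio, where the median of all genes tested was 0.00. Of 30 proteins of the U1, U2, U4, U5 and U6 particles, 27 were at 1 TPM or more in both libraries, against 39.2% of all protein-coding genes. Their median ratio was 0.01 over 27 tested, with 0 beyond 2-fold either way, against 1.18% of all 10088 genes. Genes named first and lowest in this and the following lists were ranked by the mean TPM of both libraries, and the order within a library can differ. Sf3b1, which with U2 binds the branch point, led at 198 and 150 TPM, followed by the U1 protein gene Snrnp70 at 110 and 77.8 and by Sf3b2 at 25.1 and 20.1. Sf3b5 was lowest, at 0.47 and 0.37.

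The list of Sm and LSm ring proteins, which holds the rings of the Sm sites, of the end of U6 and of U7, had 12 of 17 at 1 TPM or more. Highest in the mean were Snrpd1 with 9.09 and 9.71 TPM, Snrpe with 9.51 and 8.67 and Snrpb with 9.21 and 4.0, and in replicate 1 Snrpe and Snrpb were above Snrpd1. Snrpn, known from neurons, was listed at 0 in both. Of 10 proteins of the minor spliceosome 8 were at 1 TPM or more. Zrsr2, which binds the 3′ splice site of U12-type introns, had 31.9 and 20.1 TPM, Zcrb1 26.6 and 21.3, and Rnpc3 17.7 and 13.3, with Snrnp25 lowest at 0.27 and 0.28.

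By TPM, which is per length, the genes for making the RNAs had a median of 3.36 and 2.81 for transcription and 3.30 and 3.01 for the Integrator, against 7.945 and 5.59 for the particle proteins. Of 17 snRNA transcription genes, 14 were at 1 TPM or more, led by Bdp1 at 18.1 and 12.5, Ice1 at 11.3 and 7.65 and Snapc3 at 10.3 and 8.04, with Polr3g lowest at 0.48 and 0.43. Of 14 subunits of Integrator, the complex that cuts the 3′ end of snRNA precursors, 13 were at 1 TPM or more. Ints6 led at 24.7 and 22.6, then Ints13 at 20.4 and 13.8 and Ints8 at 13.8 and 12.3, with Ints5 lowest at 1.23 and 0.69. Of 21 genes of assembly, export and import 11 reached 1 TPM in both. They were led by Xpo1 at 21.9 and 12.5, Kpnb1 at 15.2 and 14.2 and Tgs1 at 14.2 and 11.6, and Gemin6 was lowest in the mean at 0.09 and 0.14, beside Gemin8 at 0.14 and 0.10. All 8 genes listed for maturation, modification and recycling, of U6 or other snRNAs, reached 1 TPM in both. Highest were Ssb at 20.4 and 19.8, Usb1 at 11.6 and 7.76 and Sart3 at 7.61 and 2.69, with Mettl4 lowest at 1.44 and 1.05. In the 6 lists after the first, 0 genes tested differed beyond 2-fold, and the medians ran from 0.00 to 0.23. In the order given, these lists had 9, 8, 13, 14, 12 and 8 genes tested. As only 1.18% of all 10088 genes were beyond 2-fold, 0 in lists of this size is near that share.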

How the data were processed

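The deposited tables were made on mm10 with GENCODE M21, per the file headers and names in the files; which aligner, quantifier and strand setting were used is not stated in the labels or headers. Expected counts in the gene tables are estimated read numbers that need not be whole, as deposited by the authors. The authors' TPM values are counts divided by effective length and scaled to a fixed sum. The second transcript table holds the authors' estimated counts and TPM, which were used per gene. Effective lengths and posterior SDs were used as deposited. Entries that name no gene, 0.662% and 0.232% of the counts, were left out.

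Symbols, types, positions and transcript sequences came from GENCODE M21, to which all 55536 genes matched. Families were set by edit distance (edlib 1.3.9.post1) to named copies, at 70% identity or more. Ratios between the libraries used edgeR 4.0.16 TMM factors with 0.5 added to each count, for genes with a mean count of at least 50, in R 4.3.3. DESeq2 1.42.0 size factors were an alternative. For the ratios of single genes, counts were rounded to whole numbers before the 0.5 was added. Ratios summed over a family used unrounded counts with nothing added, and no count model was fitted. Tables and figures were made with Python 3.11.15, pandas 2.3.3 and matplotlib 3.10.9. The ratio step was tested on simulated data. With 1 group of 2 libraries no test was made, and a difference was called beyond 2-fold.

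Genes named are all members with an Rnu symbol, those highest in count or TPM or at either end of the ratio, those nearest the threshold, same-strand host genes, and the 3 highest and the lowest of each protein list. The others were named after their values were seen. The members and lists were chosen with earlier results of these data known. Reads without molecular identifiers make counting intervals too narrow, so none are given.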

Additional observations from a re-analysis of the deposited data

How the results depend on the processing

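No paired analysis was possible because the series has a single group of 2 libraries. With a minimum of 5 counts 31 entries met the rule, with 20 it was 26, and by the second transcript table it was 110. Without either replicate the number was 30 to 32. The members' share of counts, 0.217% as the mean of the libraries, was 0.139% with members in no same-strand gene alone. It was 0.179% to 0.254% without either replicate. Their share of TPM, 12.5%, was 1.65% by the second transcript table, and 9.74% to 15.2% without either replicate. By TPM of the gene table the mean family shares moved from 33.0% to 49.4% for U1, from 65.7% to 45.6% for U2, from 1.21% to 4.80% for U4 and from 0.115% to 0.279% for U12. The U12 share was 1.02% by the second table, and 0.930% with every snRNA entry of that table counted, an alternative added after seeing the data. Without either replicate the shares were 29.1% to 36.9% for U1, 61.1% to 70.3% for U2, 0.576% to 1.84% for U4 and 0.0465% to 0.184% for U12. The U1b-type share of U1, 14.7%, was 14.2% by TPM and 15.2% by the second table, and 14.4% to 14.9% without either replicate. The share of Gm25939 in U2 counts, 15.0%, was 12.7% to 17.3% without either replicate. Both shares were added after seeing the data. The members' median ratio stayed between -0.85 and -0.79 under the 5 alternatives, and 6 or 7 members were lower beyond 2-fold. By deposited TPM, however, the median of all genes was itself -0.43, against 0.00 after TMM. The members' median of -0.80 by TPM therefore lay nearer to that of all genes than after TMM. Of the single ratios, that of Gm24497 turned from 0.50 to -0.087 in the second table, and that of Gm22973 reached -1.02 by TPM from -0.92. The number of members in a same-strand gene, 6, was the same for protein-coding and long noncoding genes alone. The cause of these shifts was not tested. The lowest counts among the members in replicate 2 were 13 for Rnu12 and 13.63 for Gm26316, so ratios of these copies rest on few reads there.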
